A study of Mus musculus with 32 samples.

Results

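Livers of mice given a methionine- and choline-deficient (MCD) diet together with Fc-GLP-1 (group M+Fc-GLP-1) were compared with livers of untreated mice on chow (group C), both taken before partial hepatectomy (PH). The arrays of each group were taken by their labels, 4 arrays each, 8 of the 32 arrays of the series. The comparison itself was chosen with earlier results of these data known. All mice were male C57/BL6. The M+Fc-GLP-1 mice had the MCD diet for 3 weeks and the agonist for 2 weeks, and the C mice had chow for 3 weeks and no agonist. Untreated here means without agonist: by the paper, untreated mice on chow or MCD diet were injected with saline vehicle. Fc-GLP-1 is a glucagon-like peptide 1 (GLP-1) analogue joined to the Fc part of a human immunoglobulin. The labels were not uniform on the agent: some named Fc-GLP-1, and others described a dual agonist acting on GLP1R and GCGR, with a dose of 4.4 mg/kg/day. The paper names Fc-GLP-1 as the agent of these groups, with a dose set in nmol/kg and injected every other day. It mentions a dual agonist only for earlier work. Diet and agonist both differ between M+Fc-GLP-1 and C, so the comparison measures their joint difference. Untreated MCD livers and agonist-treated chow livers (C+Fc-GLP-1), 4 arrays each, are given beside it.

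Methionine and choline supply the methyl groups and the phosphatidylcholine that the liver needs to export triglyceride in very-low-density lipoprotein, and rodents without them develop fatty, inflamed livers and lose weight. GLP-1 is a gut hormone that raises insulin secretion and lowers food intake. Adult mouse liver is also strongly sexually dimorphic: pulsatile growth hormone in males acts through STAT5B and BCL6 to keep one set of genes on and another, typical of females, off.

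The compared groups lay on different slides, so slide and group cannot be told apart in this comparison. C shared its slide with MCD, and M+Fc-GLP-1 shared its slide with C+Fc-GLP-1, which gives a diet difference within each slide. The share of probes well above background was 55.1% ± 9.6 (SD, n = 4) in C and 44.6% ± 6.2 (SD, n = 4) in M+Fc-GLP-1 (two-sided exact permutation test, p = 0.0571, where 0.0286 is the smallest p that 4 against 4 allows). C replicate 2, at 69.1%, and M+Fc-GLP-1 replicate 2, at 36.2%, stood apart from their groups. The 75th percentile of signal ran from 209 to 395 in C and from 268 to 338 in M+Fc-GLP-1. Hepatocyte markers such as Alb and Ttr had a summed level of 11.98 to 12.24 in C and 11.52 to 12.16 in M+Fc-GLP-1. Levels throughout are log2 signals minus the array's 75th percentile, differences are log2 fold changes of M+Fc-GLP-1 minus C with standard errors (SE), and a gene passed the test at a limma adjusted p under 0.05. The limma SE and p-values measure the spread between arrays of the same group, pooled over all groups of the series, before and after PH. They do not rest on the C and M+Fc-GLP-1 arrays alone. With those arrays fitted alone, 1806 genes passed, against 3575 in the main fit. In whole liver, fewer cells of a type and less RNA per cell cannot be told apart.

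Of 21289 genes tested, 3575 (16.8%) passed. They split evenly into 1763 higher (8.28%) and 1812 lower (8.51%) in M+Fc-GLP-1, around a median difference over all genes of -0.01. The counts of list members below are to be read beside these shares, and a count near them sets a list little apart. The levels of the 4 and 4 arrays did not overlap for 1837 genes on the higher side (8.63%) and 2026 on the lower side (9.52%). Differences of more than 8-fold were found for 67 higher and 47 lower genes. Within the M+Fc-GLP-1 slide, against C+Fc-GLP-1, 5.37% of genes were higher and 5.02% lower. Within the C slide, MCD against C, 10.9% were higher and 15.4% lower. Treated against untreated MCD livers, which is also the test of the difference between M+Fc-GLP-1 against C and MCD against C, gave 4.42% higher and 2.79% lower. These comparisons share arrays with M+Fc-GLP-1 against C, and the last again sets 1 slide against the other.

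The largest rises were led by enzymes that adult male liver normally keeps low. Sult1e1, the estrogen sulfotransferase, had levels of -5.82, -3.34, -3.48 and -3.37 on C arrays 1 to 4 and 3.82, 5.47, 4.85 and 3.49 on M+Fc-GLP-1 arrays 1 to 4, a rise of 8.41 (SE 0.94, adjusted p = 5.39e-07). Every M+Fc-GLP-1 array was far above every C array. Cyp2b13, a cytochrome P450, was not well above background on any C array (-5.96, -6.13, -5.72 and -5.15) and reached 1.75, 1.3, 1.93 and 2.17 with treatment and diet, which is at least 102-fold higher (adjusted p = 1.44e-15). Over the alternative settings Cyp2b13 rose by as little as 4.04, short of that bound. Its close relative Cyp2b9, above background on 2 of 4 C arrays, rose by 6.58 (SE 0.78, adjusted p = 1.39e-06). These paralogs are near-identical, so how far each probe measures the other is uncertain.

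Cux2, a transcription factor that represses male-typical genes in female liver, had levels of -4.54, -4.14, -3.99 and -4.31 in C and 2.2, 0.79, 0.87 and 2.38 in M+Fc-GLP-1, a rise of 5.81 (SE 0.47, adjusted p = 1.81e-09). Acot3, a peroxisomal acyl-CoA thioesterase, rose by 5.59 (SE 0.7), the monocarboxylate transporter gene Slc16a5 by 5.5 (SE 0.49), Cyp2a22, above background on 1 of 4 C arrays, by 5.36 (SE 0.52), the magnesium transporter-like gene Nipal1 by 5.22 (SE 0.61) and Gpat3, which acylates glycerol-3-phosphate, by 5.2 (SE 0.38). Stap1, an adaptor protein, was at least 20.9-fold higher and Sybu, a syntaxin-binding protein, at least 11.4-fold higher, with no C array well above background for either. Over the alternative settings Stap1 rose by as little as 2.43 and Sybu by 1.71, short of these bounds. None of these genes overlapped between groups, as the rule that chose them required.

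The falls were of similar size and were led by genes of male liver. Serpina4-ps1, a serpin pseudogene, had levels of 7.71, 6.24, 8.2 and 8.19 in C and -0.93, -2.77, -2.21 and -2.49 in M+Fc-GLP-1, a difference of -9.68 (SE 1.35, adjusted p = 1.58e-05). Elovl3, an elongase of very long fatty acids, went from 4.78, 4.79, 5.5 and 5.34 to -3.97, -2.76, -2.63 and -1.87, a difference of -7.91 (SE 1.15, adjusted p = 2.91e-05), with 1 of 4 M+Fc-GLP-1 arrays well above background. Cyp4a12a, a fatty acid and arachidonic acid hydroxylase, fell by 6.25 (SE 0.83, adjusted p = 7.76e-06) and the near-identical Cyp4a12b by 5.26 (SE 0.81); their probes may share signal. Pax2 fell by 5.43 (SE 1.05) and Hnf4aos, an antisense transcript at the Hnf4a locus, by 5.26 (SE 0.73). For each of these genes the 4 C arrays lay above the 4 M+Fc-GLP-1 arrays.

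Spsb4 fell by 4.15 (SE 0.63), with 1 of 4 M+Fc-GLP-1 arrays above background. A further 5 genes were not well above background on any M+Fc-GLP-1 array, so only a bound can be given. Obp2a, an odorant-binding protein, was at least 8.59-fold lower, Cfd, complement factor D or adipsin, at least 11.5-fold, Lrit2 at least 12.3-fold, Rd3 at least 13.3-fold and Cspg5, a proteoglycan, at least 13.7-fold. Some alternative settings gave smaller falls than these bounds. The smallest log2 differences were -1.83 for Obp2a, -2.07 for Cfd, -2.32 for Lrit2, -1.7 for Rd3 and -2.45 for Cspg5. Cfd, with an adjusted p of 0.0285, no longer passed without C replicate 1 or 2 or without M+Fc-GLP-1 replicate 1, 3 or 4, where its adjusted p reached up to 0.0801.

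**Figure D1:**
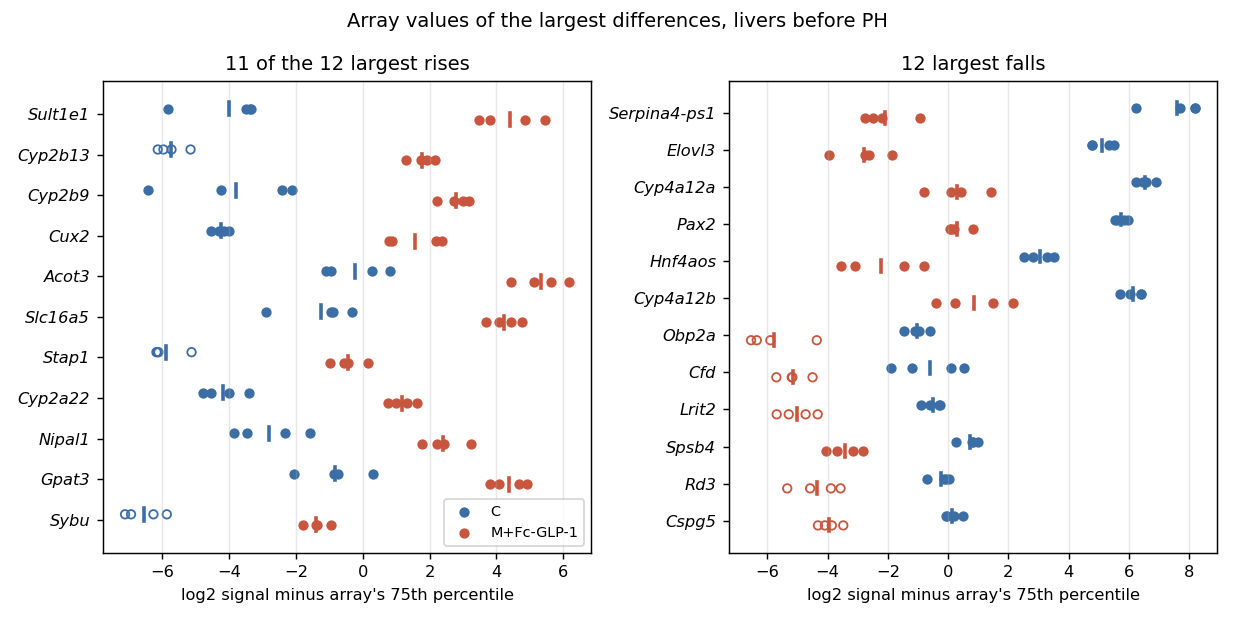
Levels of 11 of the 12 largest rises and of the 12 largest falls on each C (blue) and M+Fc-GLP-1 (red) array, as log2 signal minus the array's 75th percentile on the horizontal axis; short bars are group means and open points mark a group in which no array was well above background. The 4 red and 4 blue points are separate for each gene, with log2 differences of 8.41 for Sult1e1 and -9.68 for Serpina4-ps1.

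Of 24 female-predominant genes tested, 18 rose, 1 fell and the median difference was 3.66, against 8.28% higher over all genes and a median of -0.01. Of 32 male-predominant genes, 20 fell, none rose and the median was -2.23 (-2.18 with the members below background in 1 group at their bound). The counts were 18 and 18 without the 2 arrays that stood apart. Without a filter on dim probes, 19 of 27 female-predominant genes rose and their median was 2.84. The female-predominant and male-predominant medians were 2.14 and -1.74 with normexp and quantile normalisation. In the authors' values they were 2.03 and -1.73. Other female-predominant risers were the cytochrome P450 gene Cyp3a44 (at least 16.9-fold), the organic anion transporter genes Slc22a27 (at least 19.2-fold) and Slc22a26 (3.78), Cyp2b10 (4.44), Fmo2 (4.02), the proton pump subunit Atp6v0d2 (3.53) and the steroid hydroxylase Cyp17a1 (2.3). Cyp3a16 was the member that fell, by 1.45.

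Among male-predominant genes, Hsd3b5, a steroid dehydrogenase, fell by 4.03, Keg1 by 3.91, the complement gene C6 by 3.9, Susd4 by 3.14 and Cyp7b1, the oxysterol hydroxylase, by 2.88. The urinary pheromone carriers Mup3 and Mup5 fell by 1.78 and 2.02, with the caution that Mup genes are too alike for probes to separate. C6 was read at 5.73, 6.04, 5.86 and 6.41 in C and at 2.18, 2.24, 1.62 and 2.4 in M+Fc-GLP-1 (adjusted p = 3.07e-09). The 12 members that did not pass ranged from -2.92 for the transporter gene Slco1a1 to 0.68 for Cyp2u1.

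The within-slide comparisons gave similar counts. Against C+Fc-GLP-1, 18 female-predominant genes were higher and 19 male-predominant genes lower, and in MCD against C, 18 were higher and 25 lower. Treated against untreated MCD livers, 4 female-predominant genes were higher and 1 lower. Cux2 was 3.99 higher in M+Fc-GLP-1 than in untreated MCD livers (adjusted p = 1.58e-05), and 1.82 higher in MCD than in C (adjusted p = 0.00514).

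**Figure D2:**
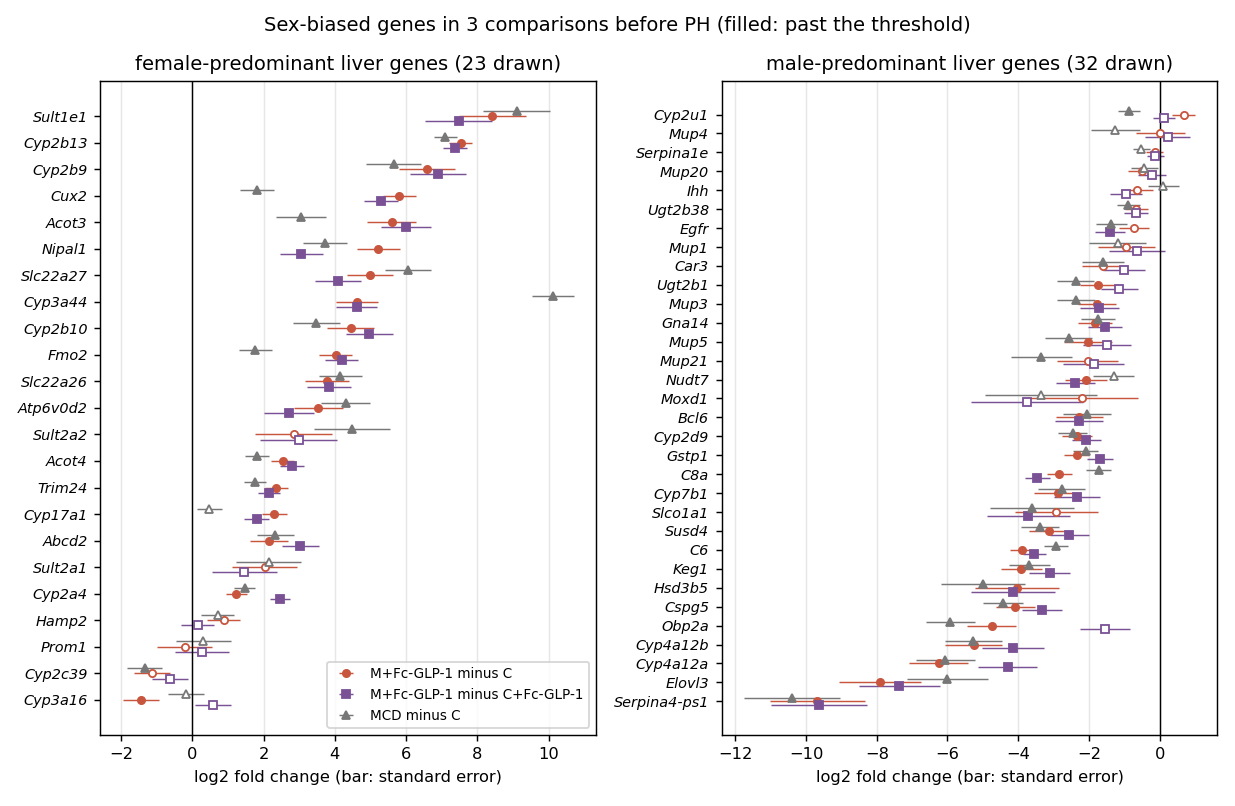
Log2 fold changes (points) with standard errors (bars) of 23 female-predominant (left) and 32 male-predominant (right) genes in M+Fc-GLP-1 minus C (circles), M+Fc-GLP-1 minus C+Fc-GLP-1 (squares) and MCD minus C (triangles); filled points passed the limma threshold. Of all 24 female-predominant genes tested, 18 rose in M+Fc-GLP-1 minus C, and 20 of 32 male-predominant genes fell.

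In the growth hormone and IGF axis itself, 2 of 17 genes rose and 2 fell (median -0.3). That is 11.8% each way, against 8.28% higher and 8.51% lower over all genes. The risers were Igfbp1 and Cux2, which is also on the female-predominant list. Stat5b, which carries the growth hormone signal, fell from 3.57, 3.66, 3.68 and 3.51 to 2.63, 3.1, 2.92 and 2.47, a difference of -0.83 (SE 0.2, adjusted p = 0.00568). Bcl6, a repressor that holds female-typical genes down in males, differed by -2.27 (SE 0.67, adjusted p = 0.0194) and its groups overlapped. Igfbp1, a fasting-induced IGF-binding protein, rose by 1.68 (SE 0.52, adjusted p = 0.0254), also with overlap. Bcl6 no longer passed without C replicate 2 or M+Fc-GLP-1 replicate 2, 3 or 4 (adjusted p up to 0.197), and Igfbp1 without C replicate 1 or 2 or M+Fc-GLP-1 replicate 3 (up to 0.128).

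Of 29 genes of the endoplasmic reticulum (ER) stress and integrated stress response, 5 rose and 5 fell, with a median of -0.17. Short promoter windows are shown for 3 genes of amino acid stress because each holds the 8 letters TGATGNAA, the CHOP-ATF composite motif, in the 250 bases before its start (Asns, Nupr1 and Fgf21). The windows are on the minus strand, RefSeq, build GRCm38.p6, in lower case with the motif in capitals as it reads along the gene's strand or as its reverse complement.
Asns (chr6:7693210-7693309): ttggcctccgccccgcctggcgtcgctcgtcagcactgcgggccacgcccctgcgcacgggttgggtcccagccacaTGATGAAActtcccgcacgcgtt
Nupr1 (chr7:126625527-126625626): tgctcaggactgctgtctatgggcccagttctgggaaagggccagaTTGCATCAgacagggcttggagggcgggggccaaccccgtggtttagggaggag
Fgf21 (chr7:45615576-45615675): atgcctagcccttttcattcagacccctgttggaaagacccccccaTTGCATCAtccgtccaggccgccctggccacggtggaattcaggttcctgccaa
Over both strands, 3.45% of 32851 promoters hold this motif in the same 250 bases, and 5 of the 27 list members with a promoter do: Atf3, Herpud1, Asns, Chac1 and Nupr1. A match is a description of the letters only.

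Asns, which makes asparagine, had levels of -1.17, -0.12, 0.03 and 0.39 in C and 3.03, 3.76, 3.31 and 3.06 in M+Fc-GLP-1, a rise of 3.51 (SE 0.44, adjusted p = 3.88e-06). Nupr1, a stress-induced chromatin protein, went from 0.04, 0.19, -0.36 and -0.44 to 3.14, 4.87, 6.27 and 4.12, a rise of 4.74 (SE 0.63, adjusted p = 9.1e-06). Fgf21, a hepatic hormone induced by fasting and amino acid shortage, rose by 3.89 (SE 0.53, adjusted p = 1.32e-05), from between -0.31 and 0.2 to between 3.45 and 4.5. All 3 genes were separate between the groups. Trib3, a pseudokinase target of the same response, rose by 2.44, Ddit4, an inhibitor of mTORC1, by 2.03 and Atf5 by 1.19 (M+Fc-GLP-1 n = 3). Untreated MCD livers had 5.29 more Asns than C, and treated MCD livers 1.78 less than untreated (adjusted p = 0.0144). Fgf21 was 4.56 higher in untreated MCD livers than in C. Treated minus untreated MCD livers, it differed by -0.67 and did not pass (limma adjusted p = 0.471). By PCR, the paper reports that the agonist brought Fgf21 mRNA on the MCD diet back to chow values.

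The 5 that fell are known as ER folding factors: Sdf2l1 (-2.67, SE 0.44, adjusted p = 0.000121), the calcium-binding chaperone calreticulin, Calr (-1.43), Hyou1 (-1.29) and the disulfide isomerases Pdia3 (-0.91) and Pdia6 (-0.9, M+Fc-GLP-1 n = 3). Sdf2l1 was read at 3.18, 3.34, 3.88 and 3.64 in C and 0.14, 1.29, 2.2 and -0.25 in M+Fc-GLP-1. The counts were also 5 and 5 without the 2 arrays that stood apart.

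Of 38 genes of methionine, choline and one-carbon metabolism, 6 rose and 4 fell (median 0.04). Psat1, of serine synthesis, rose from -4.89, -3.07, -3.25 and -3.05 to 1.05, 1.17, 0.68 and 1.02, by 4.54 (SE 0.54, adjusted p = 1.49e-06). Mthfd1l, a mitochondrial folate enzyme, rose by 4.12 (SE 0.38, adjusted p = 2.29e-08), Mat2a, a subunit of an enzyme that makes S-adenosylmethionine, by 1.33, and Mtrr, methionine synthase reductase, was at least 2.97-fold higher. Of the 4 that fell, Gnmt fell by 0.86, Sardh by 0.91, the choline kinase Chka by 1.16 (SE 0.23, adjusted p = 0.000968) and Chpt1 by 1.17. Pemt, which makes phosphatidylcholine by methylation, had a difference of 0.77 and did not pass. The count that fell was 8, above the 6 that rose, with normexp and quantile normalisation and in the authors' values, 1 without M+Fc-GLP-1 replicate 3 and 2 without C replicate 3 or 4. Amino acid catabolism and the urea cycle gave 1 higher (Got1, 2.06) and 2 lower (Haao, -1.46, and Amdhd1, -0.78) of 34, median -0.28, and Amdhd1 lost its call without any of M+Fc-GLP-1 replicates 1 to 4 or C replicates 2 to 4 (adjusted p up to 0.203).

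Of 25 genes of lipogenesis and triglyceride synthesis, 7 fell and 2 rose (median -0.41, or -0.33 with dim members at their bound). Scd1, the stearoyl-CoA desaturase, had levels of 7.69, 7.44, 6.96 and 7.34 in C and 3.81, 4.84, 3.54 and 3.19 in M+Fc-GLP-1, a difference of -3.51 (SE 0.4, adjusted p = 7.13e-07). Srebf1, the transcription factor SREBP-1, fell by 2.07 (SE 0.31, adjusted p = 4.24e-05), and its target enzymes Fasn by 1.76, Elovl6 by 1.64 and Acly by 1.1. Lpin1, a phosphatidate phosphatase that is also a coactivator in fasting, rose from 2.7, 3.46, 2.4 and 2.57 to 5.39, 5.83, 4.43 and 4.25, by 2.19 (SE 0.36, adjusted p = 0.000107). Lpin1 was 1.75 higher in M+Fc-GLP-1 than in untreated MCD livers (adjusted p = 0.00471).

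Of 33 targets of PPAR alpha and genes of fatty acid oxidation, 14 rose and 1 fell (median 0.71). The rises took in the thioesterases Acot2 (3.37), Acot4 (2.53) and Acot5 (2.41), the omega-hydroxylase Cyp4a14 (3.88), the pyruvate dehydrogenase kinase Pdk4 (3), Vnn1 (1.68), Ppara itself (1.25) and Cpt1a, the gate of mitochondrial entry (1.01). Acaa1b, a peroxisomal thiolase, fell by 1.38. Acot5 differed by -0.23 between MCD and C (adjusted p = 0.691) and was 2.65 higher in M+Fc-GLP-1 than in untreated MCD livers (adjusted p = 0.000205). Leaving out 1 array gave 11 to 13 rises.

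Lipid droplet genes followed, with 6 of 20 higher and 1 lower (median 0.67). Cidec, which fuses droplets, went from -0.26, -0.74, -0.83 and -0.5 to 4.28, 3.27, 3.57 and 4.46, a rise of 4.48 (SE 0.58, adjusted p = 5.93e-06). The coat proteins Plin4 and Plin5 rose by 3.13 (SE 0.54) and 1.91 (SE 0.27), Vldlr by 1.98 and Hsd17b13 by 1.33, and Fitm1 fell by 1.97. Plin4 was 2.05 higher and Plin5 1.05 higher than in MCD (adjusted p = 0.0202 and 0.0184). Among 17 genes of apolipoproteins and lipoprotein export, 4 rose and 3 fell (median -0.11): Apoa4 rose by 3.87 (SE 0.36, adjusted p = 2.85e-08), Apoa5 by 1.75 and Pltp, the phospholipid transfer protein, fell by 2.78. None of 25 genes of cholesterol synthesis, uptake and efflux passed (median 0.15), and the lowest difference was -0.78, for Dhcr7.

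Glucose and bile acid genes moved less. Of 22 genes of glucose, glycogen and insulin signalling, 4 rose and 2 fell (median 0.3). Ppargc1a, the coactivator PGC-1 alpha, had levels of 2, 1.31, 0.8 and 0.48 in C and 3.36, 3.02, 4.46 and 2.91 in M+Fc-GLP-1, a rise of 2.29 (SE 0.36, adjusted p = 8.02e-05), and was 1.68 higher than in MCD (adjusted p = 0.0073). Ppp1r3c, a glycogen-targeting subunit, fell by 3 (SE 0.6), and the liver glycogen synthase gene Gys2 rose by 1.36 (SE 0.31). Without C replicate 3 or 4, 2 genes of this list rose rather than 4. Of 26 bile acid genes, 5 fell and 3 rose (median -0.01). The synthesis genes Cyp7b1 and Cyp27a1 fell by 2.88 and 1.59, the receptor-induced repressor Nr0b2 by 1.4, and the efflux genes Slc51b and Abcc4 rose by 2.16 and 1.6.

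**Figure D3:**
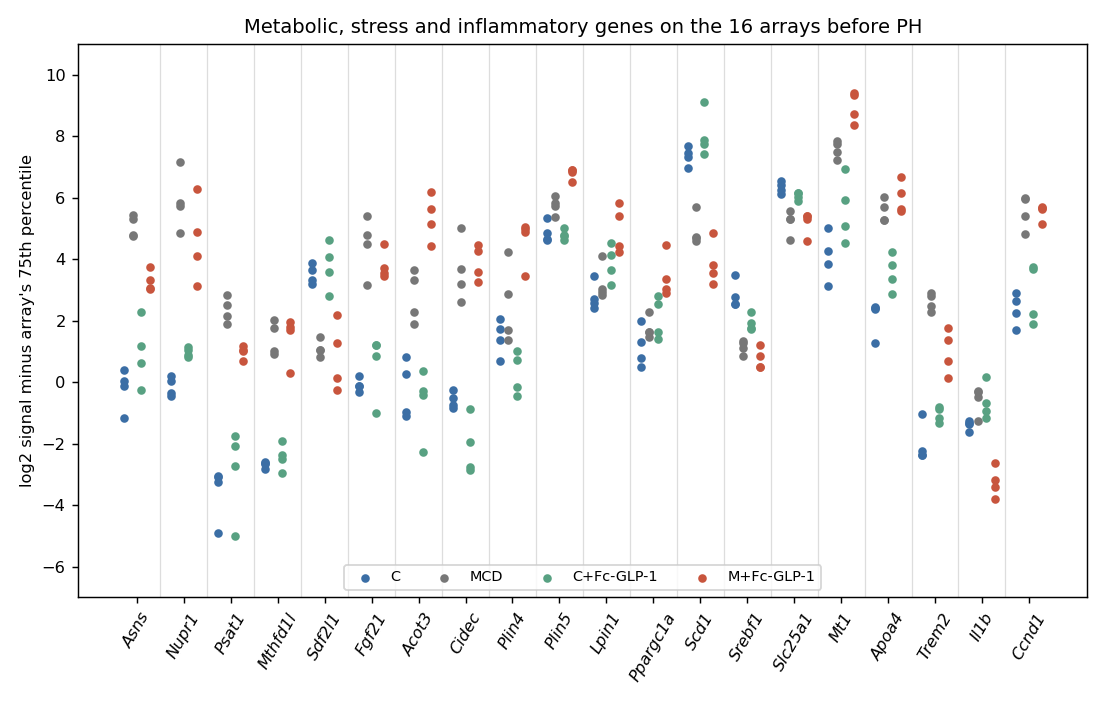
Levels (log2 signal minus the array's 75th percentile) of 20 metabolic, stress and inflammatory genes on the 16 arrays before PH, 4 points a group. Asns was 3.51 and Mt1 4.9 higher in M+Fc-GLP-1 than in C, while Scd1 had a difference of -3.51.

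Clock genes differed in both directions, and the hour at which livers were taken is not given in the sources used here. Of 20 circadian clock genes, 10 rose and 3 fell (median 1.12). The 3 that fell are Arntl, the positive-limb factor BMAL1 (-2.01), Nr1d1 (-1.57) and Nfil3 (-1.47), and those that rose include the negative-limb genes Per1 (2.22), Per2 (1.69), Per3 (3.14, above background on 1 of 4 C and 3 of 4 M+Fc-GLP-1 arrays), Cry2 (1.37) and Ciart (3.42), and the output genes Tef (1.7), Usp2 (3.99) and Wee1 (2.04). Usp2, a deubiquitinase, had levels of -0.48, 2.91, -1.32 and -0.91 in C and 4.33, 3.52, 3.75 and 4.56 in M+Fc-GLP-1 (SE 0.65, adjusted p = 0.0001). C replicate 2 was the high C array and still below all M+Fc-GLP-1 arrays. Without M+Fc-GLP-1 replicate 1, 3 or 4, 1 gene fell rather than 3.

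The E-box CACGTG, bound by CLOCK and BMAL1, lies within 250 bases before the start of 4 of the 16 clock genes with a promoter (Per1, Tef, Ciart and Bhlhe41), against 6.02% of 32851 promoters. Ciart, a repressor of the clock, is shown because its window holds the motif 3 times (minus strand, RefSeq, GRCm38.p6, motif in capitals).
Ciart (chr3:95882256-95882355): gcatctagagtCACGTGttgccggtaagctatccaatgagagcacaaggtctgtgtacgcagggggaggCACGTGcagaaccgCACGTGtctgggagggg
Within the slides, 13 clock genes were higher and 3 lower than in C+Fc-GLP-1, and 8 were higher and 2 lower in MCD than in C. Of 18 immediate early genes, 3 fell (Dusp1, -1.77, Jund, -1.51, and Zfp36, -1.46) and Klf6 rose by 1.94 (median -0.35). Without C replicate 2 or M+Fc-GLP-1 replicate 2, 5 fell. Klf6 lost its call without C replicate 1 or M+Fc-GLP-1 replicate 4 (adjusted p up to 0.0719).

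Of 21 genes of the cell cycle and mitosis, 14 rose and none fell (median 1.83, or 1.76 with dim members at their bound). Without a filter on dim probes, 12 of 26 rose (median 1.66). The mean of the list was -2.99, -2.59, -3.3 and -3.23 on the C arrays and -0.3, -1.08, -2.67 and -0.84 on the M+Fc-GLP-1 arrays, so M+Fc-GLP-1 replicate 3 lay inside the C range and the list means of the groups overlapped. Ccnd1, cyclin D1, went from 1.7, 2.63, 2.89 and 2.24 to 5.67, 5.69, 5.13 and 5.62, a rise of 3.16 (SE 0.42, adjusted p = 9.28e-06), and Ccne1, cyclin E1, rose by 1.81 (SE 0.32, adjusted p = 0.000234). Mitotic genes rose as well, among them Ccnb1 (2.3), Cdc20 (2.25), Plk1 (2.07) and Ccna2 (2.02, SE 0.59, adjusted p = 0.0189, and up to 0.127 without M+Fc-GLP-1 replicate 1 or 4). Pbk was at least 2.53-fold higher, and Top2a, counted among the 14, was not well above background on any of the 8 arrays. The count of 14 was 4 without M+Fc-GLP-1 replicate 1 or 4, 7 without C replicate 4, 8 without C replicate 3, 9 without C replicate 1 and 7 without the 2 arrays that stood apart.

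Of 25 DNA replication genes, 6 rose and 1 fell (median 0.56). Mcm6, a helicase subunit, rose by 1.9 (SE 0.4), Cdt1, which loads it, by 1.44 (SE 0.28) and Gmnn, the inhibitor of Cdt1, by 1.64, while E2f1 fell by 1.76 (SE 0.35, adjusted p = 0.000973) with overlap between groups. In MCD against C, 20 cell cycle genes and 11 replication genes were higher. Treated against untreated MCD livers, no cell cycle gene passed (median -1.13). Of 10 fetal liver and progenitor genes, Afp, alpha-fetoprotein, rose by 2.95 (SE 0.34, adjusted p = 9.37e-07) and Krt23 by 2.67 (median 0.29). Krt23 lost its call without C replicate 3 or M+Fc-GLP-1 replicate 3 (adjusted p up to 0.0798). Bcl2l11 (1.29) and Gadd45b (2.2) rose among 18 p53 targets and apoptosis genes (median 0.22).

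**Figure D4:**
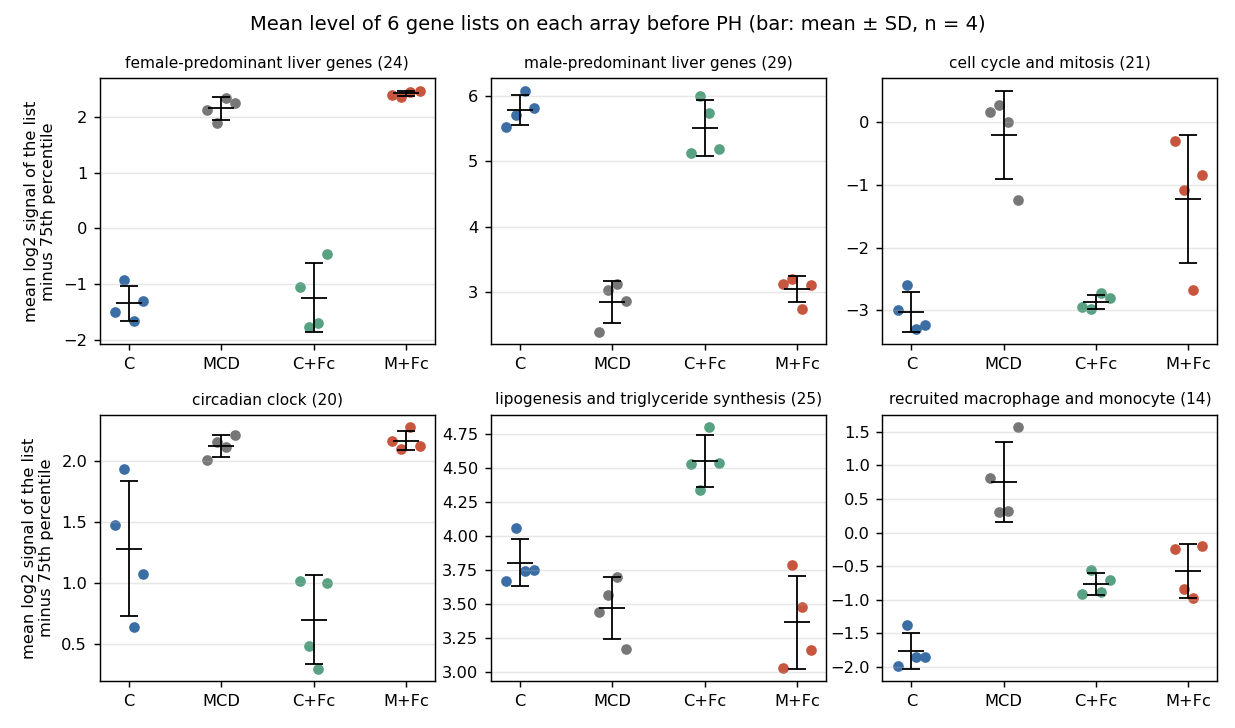
Mean level of 6 gene lists on each array before PH (points; bars are the mean and SD, n = 4) in C, MCD, C+Fc-GLP-1 (C+Fc) and M+Fc-GLP-1 (M+Fc), as log2 signal minus the array's 75th percentile. The cell cycle list lies at -0.3, -1.08, -2.67 and -0.84 in M+Fc-GLP-1, with replicate 3 inside the C range of -3.3 to -2.59.

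Mt1, a metallothionein that binds zinc and copper, went from 4.27, 5.01, 3.13 and 3.84 to 9.41, 8.72, 8.38 and 9.35, a rise of 4.9 (SE 0.51, adjusted p = 1.6e-07), and Mt2 rose by 4.9 as well (SE 0.73, M+Fc-GLP-1 n = 3). Of 31 antioxidant, glutathione and NRF2 genes, 4 rose and 7 fell (median -0.34). The glutathione transferases Gstp1, Gstm6, Gstm4 and Gsta4 fell by 2.35, 1.73, 1.22 and 1.01, and Gclm, of glutathione synthesis, by 1.3. Gstp1 and Gstm6 have close relatives whose transcripts the probes may share. Of 15 iron genes, the transferrin receptor Tfrc rose by 1.22 and Bmp2 by 0.92 (adjusted p = 0.01), the latter reversing to -0.1 with normexp and quantile normalisation and -0.11 in the authors' values (list median 0.4).

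Of 15 retinoid genes, 4 rose and 1 fell (median 0.19): Bco1, which cleaves carotene, rose by 1.71 (SE 0.31) and the retinoic acid hydroxylase Cyp26b1 by 2.14 (SE 0.55), and Dhrs3 fell by 1.09 (SE 0.22). Aldh1a3 and Lrat, the other risers, lost their calls without C replicate 1, Aldh1a3 also without C replicate 4 and Lrat also without C replicate 2 or 3 or M+Fc-GLP-1 replicate 1, 3 or 4 (adjusted p up to 0.305 and 0.15). Aldh1a3 was well above background on 1 of 4 C and 1 of 4 M+Fc-GLP-1 arrays, with overlap between groups. Its difference was as low as 0.26 over all settings. Among 15 pericentral genes, Lect2 and Rnf43 rose by 1.26 and 1.27 (median 0.02), and Rnf43 lost its call without C replicate 4 (adjusted p up to 0.0701).

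Genes of complement, coagulation and the acute phase mostly fell or did not pass. Of 26 complement and coagulation genes, 6 fell and none rose (median -0.28). The terminal complement components C6, C8a, C9 and C8b fell by 3.9, 2.84, 2.05 and 1.77, and Masp2, of the lectin pathway, by 1.31, and F7, coagulation factor VII, by 0.89. C6 and C8a are also on the male-predominant list. Of 21 acute phase genes, 5 fell and 2 rose (median -0.37). Saa1 and Saa2, which are near-identical, fell by 2.04 and 1.99, Saa3 by 1.7, Orm1 by 1.11 and Fga by 1.24. Apcs, serum amyloid P, rose from 2.11, 2.6, 2.76 and 3.08 to 6, 6.58, 6.42 and 5.85, by 3.58 (SE 0.34, adjusted p = 3.69e-08). The acute phase list had 2 falls without M+Fc-GLP-1 replicate 3 or 4 and 3 without any of the C replicates 1 to 4.

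Of the study's own PCR genes, 16 were tested, which were chosen in work on the same mice and are no independent evidence of direction. Mmp9, also a PCR gene on the array, was left out by the filter on dim probes. Fgf21 rose, and Il1b, interleukin 1 beta, fell from -1.33, -1.62, -1.27 and -1.36 to -3.41, -3.18, -3.79 and -2.62, a difference of -1.85 (SE 0.47, adjusted p = 0.00752). The M+Fc-GLP-1 arrays were all below the C arrays, 2 of them well above background. Against untreated MCD livers the difference of Il1b was -2.66 (adjusted p = 0.00148). The other 14 did not pass, from -0.82 for Acta2 to 0.64 for Ly6g (median of the list 0.25, or 0.0 with dim members at their bound). Adgre1, a macrophage surface marker, differed by -0.06 (SE 0.59), Ccl2 by 0.41 (SE 0.85), Col1a1 by 0.4 (SE 0.62), Tgfb1 by -0.62 (SE 0.37), Fap by 0.43 (SE 0.49) and Dpp4 by 0.37 (SE 0.39). Tnf was well above background on 1 of 8 arrays. Of 24 cytokines, chemokines and innate receptors, Il1b was the gene that passed (median 0.26, or 0.11 with dim members at their bound).

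Of 14 recruited macrophage and monocyte genes, 5 rose and 1 fell (median 1.15, or 0.78 with dim members at their bound). Trem2, a lipid-sensing receptor, went from -2.24, -1.03, -2.37 and -2.35 to 0.7, 1.38, 0.14 and 1.76, a rise of 2.99 (SE 0.75, adjusted p = 0.00659). Gpnmb was at least 4.75-fold higher, and Chil3, Clec7a and Lgals3 rose by 2.76, 2.44 and 2.11. Fabp5, which hepatocytes also express, fell by 2.14. The list had 2 rises without C replicate 3 or M+Fc-GLP-1 replicate 4 and 3 without C replicate 2 or 4 or M+Fc-GLP-1 replicate 1, and Lgals3 lost its call without C replicate 3 or M+Fc-GLP-1 replicate 4 (adjusted p up to 0.219). Of 12 Kupffer cell genes, Folr2 fell by 1.87 (SE 0.44, adjusted p = 0.00365) and none rose (median -0.08). Against C+Fc-GLP-1, on the same slide, none of the 14 recruited macrophage genes was higher and 1 was lower (median -0.06), with an adjusted p of 0.0796 for Trem2. The median of 1.15 was 0.69 with normexp and quantile normalisation and 0.68 in the authors' values, and normexp left 2 rises. In MCD against C, 10 recruited macrophage and 9 Kupffer cell genes were higher, and treated against untreated MCD livers had 3 and 8 lower.

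The summed levels of both macrophage lists overlapped between C and M+Fc-GLP-1, at 5.09 to 6.67 against 4.68 to 5.34 for recruited cells and 6.15 to 6.99 against 5.8 to 7.06 for Kupffer cells. Of 12 cell type lists, none reached a Benjamini-Hochberg adjusted p under 0.05 in the exact permutation test of summed levels, the lowest being 0.0858, for 4 lists whose groups did not overlap. These were the neutrophil list, higher in M+Fc-GLP-1 (6.77 to 7.11 against 5.8 to 6.53), and the T and NK lymphocyte (4.81 to 6 against 6.2 to 7.28), mesothelial and adipocyte and pancreatic acinar lists, all lower. The neutrophil and T and NK sums rested mainly on their brightest gene, Csf3r (mean level 6.86 in M+Fc-GLP-1) and Cd4 (mean level 6.48 in C), and 10 of the 15 T and NK genes had a positive difference. By gene, Csf3r rose among 12 neutrophil genes (0.86, median 0.02), Cd4 fell among 15 T and NK genes (-1.72, median 0.25), Msln was at least 7.79-fold lower among 3 mesothelial genes (median -1.8), and Cfd fell among 3 adipocyte and acinar genes (median -0.91, or -0.49 with dim members at their bound). Csf3r lost its call without C replicate 1 or M+Fc-GLP-1 replicate 3 (adjusted p up to 0.781 over all settings). What part these cells have in the results was not tested.

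Among 9 B and plasma cell genes, Blnk rose by 2.63 and Jchain and Cd22 fell by 3.22 and 0.7 (median -0.7). Blnk had 0.68 less in M+Fc-GLP-1 than in untreated MCD livers (adjusted p = 0.304), and Jchain 5.29 less (adjusted p = 2.39e-05). Cd22 lost its call without C replicate 2, 3 or 4 or M+Fc-GLP-1 replicate 1 or 2 (adjusted p up to 0.15). In 9 blood and platelet genes, Alas2 fell by 2.39 and Pf4 rose by 1.32 (median -0.44), the latter not without C replicate 3 or M+Fc-GLP-1 replicate 4 (adjusted p up to 0.0802). None of 5 cholangiocyte genes (median 0.05) and none of 6 MHC class II genes (median -0.04) passed, where MCD against C had 5 class II genes higher. Of 10 hepatocyte genes, Apoa1 fell by 0.67 (median -0.39), and it lost its call without C replicate 1, 3 or 4 or M+Fc-GLP-1 replicate 3 or 4 (adjusted p up to 0.129).

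Of 19 collagens and matrix genes, Lum rose by 1.34 and Sparc by 0.86 (median 0.26). Of 21 matrix proteases, TIMPs and TGF beta genes, 4 rose (19%) and 1 fell (median 0.65): Ccn2, connective tissue growth factor, rose from 1.38, 1.34, 1.31 and 1.62 to 3.51, 3.24, 2.83 and 3.32, by 1.81 (SE 0.42, adjusted p = 0.00324), Tgfbi by 1.17, Timp3 by 1.06 and Adamts1 by 0.94, and Inhba fell by 1.47. Of 13 stellate cell and myofibroblast genes, Pdgfra rose by 1.6 (SE 0.26, adjusted p = 9.64e-05), Lrat by 0.89, and Ngfr fell by 1.52 (median 0.43, which turned to -0.31 both with normexp and quantile normalisation and in the authors' values). Of 12 endothelial genes, Stab2, a sinusoidal scavenger receptor, rose by 1.44 (SE 0.24) and Lyve1 by 1.95 (median 0.17). Sparc lost its call without M+Fc-GLP-1 replicate 1 (adjusted p up to 0.602 over all settings).

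Interferon-stimulated genes gave 2 higher (Mx1, 1.68, and Usp18, 1.22) and 2 lower (Psmb8, -1.2, and Bst2, -1.15) of 21, with a median of -0.11. These counts are 9.52% each way, near the shares over all genes. The count of higher genes was 4 without M+Fc-GLP-1 replicate 3. Usp18 (adjusted p = 0.0493) lost its call without C replicate 1, 3 or 4 or M+Fc-GLP-1 replicate 1, 2 or 4 (adjusted p up to 0.537 over all settings). Of 5 incretin and glucagon receptor and processing genes, Glp2r, the receptor of the sister hormone GLP-2, passed (1.94, SE 0.47, adjusted p = 0.00475), with 1 of 4 C and 3 of 4 M+Fc-GLP-1 arrays well above background. Gcgr, the glucagon receptor, differed by 0.59 and did not pass. Glp1r, the receptor of GLP-1, was well above background on 2 of 4 C and 1 of 4 M+Fc-GLP-1 arrays and differed by -0.13 (SE 0.51, adjusted p = 0.901).

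**Figure D5:**
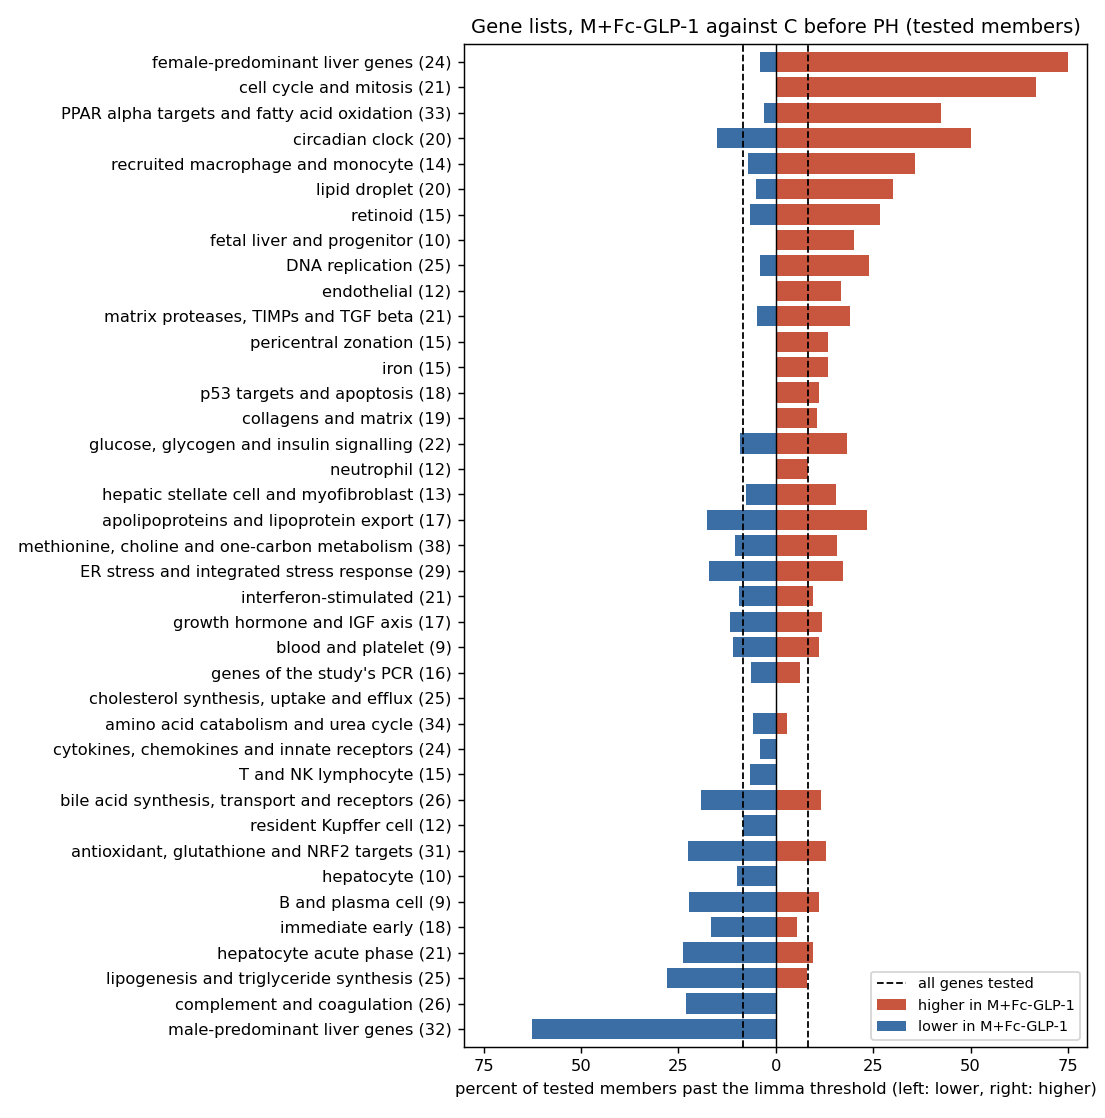
Percent of tested members of each list with at least 8 tested members (number in brackets) that passed the limma threshold, higher to the right and lower to the left of 0; dashed lines mark the shares over all genes, 8.28% higher and 8.51% lower. Female-predominant, cell cycle, PPAR alpha and clock genes reach furthest to the right, and male-predominant genes furthest to the left.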

How the data were processed

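Liver RNA was hybridised to 1-colour Agilent 8 x 60K mouse arrays. The authors deposited scanner files of Feature Extraction 10.7.3.1 (protocol GE1_107_Sep09), whose processed signal is an intensity that is already background-subtracted, and a table of normalised log2 values, which the authors state were processed with limma and which were normalised separately before and after PH. The arrays' number, 4 a group, limits the precision.

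The deposited intensity of 59305 non-control spots was taken to log2, spots of a probe were averaged, outlier-flagged spots were set to missing on their array, and each array's 75th percentile was subtracted. A probe was kept when well above background on every array of at least 1 of the 8 groups, and a gene took its brightest kept probe (21289 genes). Gene names follow the array's accessions through RefSeq (GRCm38.p6), where they matched (27656 of 55681 probes), and otherwise the file. limma 3.58.1 in R 4.3.3 fitted 8 group means over 32 arrays (lmFit, eBayes), with Benjamini-Hochberg adjustment and a threshold of 0.05. Where no array of a group was well above background, "at least" gives the brighter group's mean over the higher of the lowest signal above background and the dim probe's own level. Such a bound holds for the main setting only, and some alternative settings gave smaller differences. Cell type lists were summed per array and tested by a two-sided exact permutation. Scripts were tested on simulated data.

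The genes named are the 12 largest rises and 12 largest falls among genes that passed without overlap, leaving out predicted genes, the study's PCR genes, and up to 4 members of lowest p in each of 44 lists; further list members that passed were named after their values were seen. The comparison and the lists were chosen with earlier results of these data known. Alternatives covered background correction, centring, the authors' values, filters, probe choice, samples fitted, a replicate block and left-out arrays. Promoter windows come from RefSeq. Some genes that met the naming rule or belong to a list are not reported here by name; they stay in the counts and medians.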

Additional observations from a re-analysis of the deposited data

Results flagged for a closer look

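The test of the difference between the diet effect with Fc-GLP-1 and without it (the interaction term in limma, each diet effect within its own slide) passed for 1305 genes (6.13%), 761 in the higher and 544 in the lower direction. Among the genes named it passed for 26, given here as the diet effect under Fc-GLP-1 minus the diet effect without, on the log2 scale. Lower under Fc-GLP-1 were Ccl2 (-4.4), Jchain (-3.85), Sybu (-3.52), Il1b (-3.42), Folr2 (-3.08), Hk2 (-3.06), Asns (-2.96), Pf4 (-2.93), Clec7a (-2.92), Stap1 (-2.69), Blnk (-2.6), Afp (-2.49), Mx1 (-2.27), Fabp5 (-1.99), Chka (-1.94), C8a (-1.74), Sparc (-1.6) and Apcs (-1.59). Higher were Obp2a (4.36), Acot5 (3.65), Cux2 (3.48), Plin4 (3.22), Zfp36 (2.32), Cd4 (1.89), Slco1a4 (1.73) and Amdhd1 (1.56). Some of these values rest on groups near the floor, so their size is uncertain. Obp2a was well above background on 2 of 4 C+Fc-GLP-1 arrays and on no MCD or M+Fc-GLP-1 array. It differed by -3.2 in C+Fc-GLP-1 minus C. Stap1 and Sybu were well above background on no C array, and Hk2 and Mx1 on 1 of 4 C arrays.

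Of 380 sets of 4 values checked, 27 held an array farther from the others than Dixon's 95% critical ratio for 4 values, where chance gives about 1 in 20. The ratio of the gap to the range in C was 0.944 for Sult1e1, 0.94 for Stap1, 0.833 for Blnk, 0.938 for Apoa4, 0.879 for Per3, 0.916 for Lyve1, 0.949 for Pdgfra, 0.892 for Ngfr, 0.932 for Lrat, 0.893 for Psat1 and 0.908 for Trem2. In M+Fc-GLP-1 it was 0.842 for Got1, 0.874 for Ccnd1, 0.879 for Dpp4, 0.931 for Mmp2, 0.882 for Bcl6, 0.898 for Saa3, 0.832 for Plin5, 0.897 for Plin4, 0.894 for Slc25a1, 0.958 for Adamts1 and 0.847 for Mthfd1l. Of the list means, it was 0.9 for collagens and matrix, 0.971 for endothelial, 0.912 for incretin and glucagon receptors and 0.875 for methionine, choline and one-carbon metabolism in C, and 0.989 for interferon-stimulated genes in M+Fc-GLP-1.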

How the results depend on the processing

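Over 20 alternative settings, the count of 3575 genes stayed within 1.5 times except with the 8 arrays fitted alone, which gave 1806 (842 higher, 964 lower). Without a filter on dim probes the total was 4176 of 34946 genes, but 2649 were higher, over 1.5 times the 1763, and 1527 lower. Leaving out 1 array gave 2680 to 3478 genes, of which 1326 to 1871 higher and 1329 to 1679 lower. Centred on the array median, 1654 genes were higher and 1282 lower. 2 settings were chosen after seeing the data: without both arrays that stood apart, and with flagged probes dropped. Same-numbered C and M+Fc-GLP-1 arrays did not deviate together (correlations of -0.0866, -0.0877, -0.051 and 0.0204), and the replicate block again gave 3575 genes, with Amdhd1 the named gene it took below the threshold.

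Of 132 named genes that passed, 93 kept direction and call throughout and 38 lost the call under at least 1 setting; the cause was not tested. With normexp and quantile normalisation and in the authors' values, Bmp2 reversed to -0.1 and -0.11, Adgre1 to 0.36 and 0.32, Ly6g to -0.03 and -0.04 and Mmp2 to 0.14 and 0.12. Leaving out 1 array moved Adgre1 between -0.63 and 0.3, Mmp2 between -0.38 and 0.05 and Ifng between -0.14 and 0.61. Without both arrays that stood apart, Adgre1 was 0.17 and Mmp2 0.01. Calr, Haao, Gmnn, Gys2, Slc25a1, Slco1a4, Lum, Tm6sf2, Top2a and Glp2r lost the call in the authors' values, Il1b with normexp, Masp2, Stab2, Itih4 and Sparc with the mean over probes, and E2f1, Stat5b, Timp3, Tfrc, Rnf43, Lyve1 and Adamts1 with 8 arrays fitted. Of 880 list medians (44 lists, 20 settings), 58 changed sign. With normexp and quantile normalisation and in the authors' values these took in collagens and matrix (-0.07 in both), stellate cell and myofibroblast (-0.31 in both), cholangiocyte (-0.32 and -0.31), T and NK lymphocyte (-0.06 and -0.04) and retinoid genes (-0.03 and -0.02).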
